A study of Mus musculus with 12 samples.

Results

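Ligands, receptors and antagonists of the bone morphogenetic protein (BMP) and activin pathways were followed in C22 cells, a cloned mouse club (Clara) cell line from H-2Kb-tsA58 transgenic mice that is immortal while it is kept cool with interferon-γ. The 10 genes were taken by name, from a list by function drawn up with earlier results of these data known: the ligands Bmp2, Bmp4, Bmp6 and Inhba, the receptors Bmpr1a, Bmpr2 and Acvr1, and the antagonists Fst, Fstl3 and Grem1, out of 23282 gene rows. Differentiated cells that carried a negative control knockdown (NC) or a knockdown of Pdcd5 (siPdcd5), a gene first named for its link to programmed cell death, were starved of serum for 2 h and were then left without TGF-β1 or given it at 20 ng/ml for 24 h. The NC and siPdcd5 cells, each with and without TGF-β1, made 4 groups of 3 libraries of 3′ mRNA tags. The labels do not say that the libraries of a group came from separate cultures, so p-values measure only the spread between these libraries, which may be technical.

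BMPs and activins are secreted dimers of the TGF-β superfamily. They bind type II receptors such as Bmpr2, which switch on type I receptors such as Bmpr1a and Acvr1. BMP receptors pass the signal to SMAD1, SMAD5 and SMAD9, and activin receptors pass it to SMAD2 and SMAD3, the branch that TGF-β itself uses. Follistatin (Fst), follistatin-like 3 (Fstl3) and gremlin (Grem1) bind the ligands outside the cell and keep them from their receptors. In the lung, Bmp4 takes part in airway branching and in the balance of epithelial and mesenchymal cells, and activin A, the dimer of the Inhba product, is known from tissue repair and fibrosis.

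The libraries held 12809857 to 17714828 counts. Levels are given as CPM, counts scaled to a common library total that the trimmed mean of M values (TMM) corrects, and 3 counts, the limit that a count of 0 allows, came to 0.165 to 0.239 CPM (counting error only). Pdcd5 itself ranged from 65.1 to 73.5 CPM in NC cells, or 66.3 to 69.7 with TGF-β1, and from 20.0 to 22.1 CPM in siPdcd5 cells, or 21.8 to 26.3 with TGF-β1, so the targeted gene was low in every knockdown library and still present. The labelled cell type was not borne out by its defining markers: of 8 club cell markers only Cbr2 and Aldh1a1 passed the low-count filter, Scgb3a2 and Cyp2f2 were at 0 in all 12 libraries, and Scgb1a1 had 1 count in 1 library. The cells are therefore called C22 cells here. Of 8 fibroblast markers 6 passed the filter, and the list summed to 3760 to 4005 CPM without and 7447 to 8064 with TGF-β1 in NC cells, and to 2562 to 3137 and 5613 to 5971 CPM in siPdcd5 cells. Nearly all of that sum was Col1a1 and Col3a1, and the list did not move as one: Dcn had a mean of 95.7 CPM without and 22.6 with TGF-β1 in NC cells, and 144 and 41.5 CPM in siPdcd5 cells. The epithelial list, of which 4 of 8 genes passed the filter, summed to 676 to 699 CPM without and 1243 to 1678 with TGF-β1 in NC cells. In siPdcd5 cells it summed to 549 to 700.0 and 1586 to 1647 CPM. Nearly all of that sum was Krt8 and Krt18. Cdh1 had a mean of 3.18 CPM without and 2.12 with TGF-β1 in NC cells, and Krt7 2.45 and 2.36. Epcam had 1 count, in an NC library. Of 5 basal markers only the keratin Krt14 passed the filter, and Krt5, Trp63, Ngfr and Krt15 did not. Krt14 had a mean of 10.8 CPM without and 187 with TGF-β1 in NC cells, and 3.51 and 82.4 CPM in siPdcd5 cells. The summed club list moved as well, at 709 to 719 CPM without and 314 to 426 with TGF-β1 in NC cells, and at 387 to 464 and 259 to 273 CPM in siPdcd5 cells. The part of these lists in the results given here was not tested, and in bulk libraries fewer cells of a kind and less RNA per cell cannot be told apart.

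Of the 10 genes, 7 passed the filter on low counts and could be tested: Bmp4, Inhba, Bmpr1a, Bmpr2, Acvr1, Fst and Fstl3. Bmp2, the close relative of Bmp4, had 3 counts over the 12 libraries and was at 0 in 9 of them. Bmp6, known for its part in iron balance, had 5 counts in all, 3 of them in replicate 1 of NC + TGF-β1, and was also at 0 in 9 libraries. The antagonist Grem1 had 2 counts, 1 each in replicate 3 of the 2 TGF-β1 groups. No difference in these 3 genes was detectable at this depth.

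Bmp4 (chromosome 14, 46383520 to 46390669, minus strand; GRCm38) and Inhba (chromosome 13, 16011851 to 16031621, plus strand) were the members with the largest fitted changes in both TGF-β1 comparisons, in opposite directions. Their promoters are shown because the ligands went opposite ways under 1 stimulus. Each sequence is the 250 bases before the RefSeq start of the gene (GRCm38.p6), 5′ to 3′ on the gene's own strand. Neither holds CAGAC or GGCGCC, the SMAD motifs searched, so no base is in capitals.
Bmp4, chr14:46390670-46390919, minus strand: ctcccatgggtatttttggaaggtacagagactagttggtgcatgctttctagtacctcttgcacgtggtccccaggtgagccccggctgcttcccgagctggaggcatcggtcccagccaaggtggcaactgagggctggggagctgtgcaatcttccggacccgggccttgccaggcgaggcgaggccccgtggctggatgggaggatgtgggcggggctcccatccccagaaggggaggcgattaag
Inhba, chr13:16011601-16011850, plus strand: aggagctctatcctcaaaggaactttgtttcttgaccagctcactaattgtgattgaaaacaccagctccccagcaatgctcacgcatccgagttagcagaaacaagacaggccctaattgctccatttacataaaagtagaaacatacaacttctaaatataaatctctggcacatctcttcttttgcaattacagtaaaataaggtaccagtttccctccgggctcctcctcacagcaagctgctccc
Of these bases, 63.2% were G or C for Bmp4 and 43.2% for Inhba. No annotated gene overlaps the Bmp4 window, and the Inhba window lies in an intron of B230303A05Rik on the other strand. The motifs searched were CAGAC, the SMAD3 and SMAD4 box, and GGCGCC, a motif bound by BMP-activated SMADs, each on both strands. CAGAC was present in 42.2% and GGCGCC in 9.59% of 32851 promoter windows of the same length. Among the 8 members with a RefSeq window, CAGAC was found in Bmp6, Fstl3 and Grem1, and GGCGCC in Bmpr1a, Bmpr2 and Grem1. The windows of Bmp6, Bmpr1a, Bmpr2 and Acvr1 end 609, 795, 879 and 329 bases inside the GENCODE gene and overlap its exons, so for these 4 genes they are not upstream of every annotated start. The windows of Bmp4, Inhba and Acvr1 held neither, which says only that these letters are not in these windows.

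Bmp4 RNA fell with TGF-β1 and, in cells without TGF-β1, was lower after the knockdown. In NC cells it was at 509, 539.5 and 504 CPM in replicates 1 to 3, and in NC + TGF-β1 at 160.3, 191 and 244 CPM. In siPdcd5 cells it was at 269, 377 and 347 CPM, and in siPdcd5 + TGF-β1 at 137, 169 and 167 CPM. Every library with TGF-β1 was below every library without it, and within the untreated libraries every siPdcd5 library was below every NC library. The mean was 518 ± 19.3 CPM without and 198 ± 42.3 CPM with TGF-β1 in NC cells, and 331 ± 55.9 and 157 ± 17.8 CPM in siPdcd5 cells (SD, n = 3 libraries, as for each mean here). By the quasi-likelihood test of edgeR, adjusted by Benjamini-Hochberg over the 12425 genes tested and read at a threshold of 0.05, Bmp4 was 2.61-fold lower with TGF-β1 in NC cells (log2 fold change -1.38, SE 0.15, adjusted p = 1.5e-05). It was 2.10-fold lower with TGF-β1 in siPdcd5 cells (log2 fold change -1.07, SE 0.15, adjusted p = 0.000177). Reads of Gm15217, which overlaps the 3′ end of Bmp4 on the other strand, came to 5.37 to 12% of the Bmp4 reads. The counting is not stated to use strand, so the 2 genes cannot be told apart there.

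Inhba, which encodes the βA subunit of activins, rose with TGF-β1. It was at 42.4, 48.3 and 45.3 CPM in NC and at 173, 172 and 215 CPM in NC + TGF-β1. The siPdcd5 libraries were at 22.2, 33.6 and 31.9 CPM, and those of siPdcd5 + TGF-β1 at 129.6, 141 and 150.3 CPM. All 6 treated libraries were above all 6 untreated ones, and the siPdcd5 libraries were below the NC libraries on either side of the treatment. The change was 4.12-fold in NC cells (log2 fold change 2.04, SE 0.14, adjusted p = 2.0e-07, edgeR quasi-likelihood test) and 4.79-fold in siPdcd5 cells (95% interval of the log2 fold change 1.95 to 2.57, adjusted p = 1.1e-07).

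The knockdown without TGF-β1 lowered both ligands by a like amount. Bmp4 was 1.56-fold lower (log2 fold change -0.65, SE 0.15, adjusted p = 0.0294) and Inhba 1.55-fold lower (-0.63, SE 0.14, adjusted p = 0.0267, edgeR quasi-likelihood test). Each call was lost without any single NC replicate and without siPdcd5 replicate 1 or 3. Without siPdcd5 replicate 1, the library with the lowest Bmp4, Inhba and Bmpr1a of its group, the log2 fold changes were -0.52 and -0.47. With TGF-β1 present, the differences between siPdcd5 and NC cells were -0.33 for Bmp4 (adjusted p = 0.346) and -0.41 for Inhba (adjusted p = 0.174), neither past the threshold.

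The ratio of the ligands, chosen after the values were seen, does not depend on any scaling between libraries. For every 100 Bmp4 reads a library held 8.32, 8.95 and 8.99 Inhba reads in NC and 8.27, 8.93 and 9.17 in siPdcd5. With TGF-β1 it held 107.75, 90.4 and 88.3 in NC and 94.6, 83.7 and 90.2 in siPdcd5. Treated and untreated libraries lay far apart, while the siPdcd5 and NC ranges overlapped at either treatment, and the ratio of the ligands changed with TGF-β1 and not detectably with the knockdown.

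**Figure D1:**
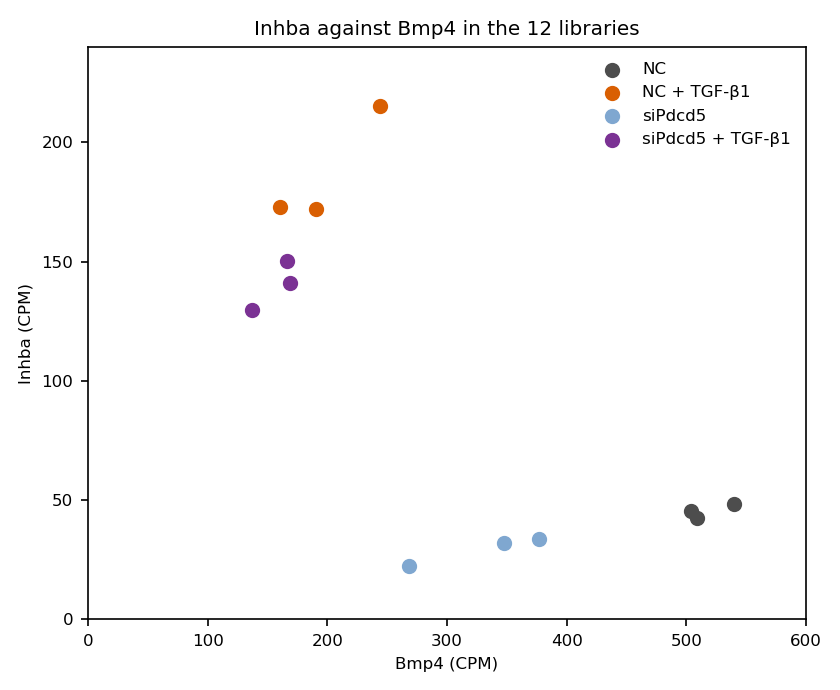
Inhba (vertical axis, CPM) against Bmp4 (horizontal axis, CPM), 1 point for each of the 12 libraries, coloured by group. The untreated libraries lie low, with NC at 504 to 539.5 CPM of Bmp4 and siPdcd5 at 269 to 377, and the 6 TGF-β1 libraries lie high on the left, from 129.6 CPM of Inhba up.

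Among the receptors, Bmpr2 (chromosome 1, 59763400 to 59879014, plus strand), the type II receptor for BMPs, rose with TGF-β1. It was at 95.1, 82.4 and 85.7 CPM in NC and 136, 135 and 151 CPM in NC + TGF-β1. The siPdcd5 libraries were at 73.4, 89.6 and 76.4 CPM and the siPdcd5 + TGF-β1 libraries at 138, 127 and 132 CPM. Treated and untreated libraries did not overlap in either background, while the NC and siPdcd5 libraries did. The change was 1.60-fold in NC cells (log2 fold change 0.68, SE 0.10, adjusted p = 0.000174) and 1.66-fold in siPdcd5 cells (0.73, SE 0.10, adjusted p = 0.000105, edgeR quasi-likelihood test). The difference between siPdcd5 and NC cells was -0.14 without TGF-β1 (95% interval -0.34 to 0.07) and -0.09 with it (-0.30 to 0.12).

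Acvr1 (chromosome 2, 58388644 to 58567157, minus strand), a type I receptor also known as ALK2, rose with TGF-β1 in NC cells with a wide spread. It was at 15.4, 18.1 and 17.6 CPM in NC and at 24.5, 57.0 and 29.2 CPM in NC + TGF-β1. In siPdcd5 it was at 20.2, 15.4 and 15.8 CPM and in siPdcd5 + TGF-β1 at 32.3, 18.1 and 36.1 CPM. Replicate 2 stood apart from its mates in both treated groups, high in NC + TGF-β1 and low in siPdcd5 + TGF-β1, where it lay within the range of the untreated libraries. Over all tested genes, NC + TGF-β1 replicate 2 had the lowest mean correlation with its group mates of the 12 libraries (r = 0.976). Without it, 2558 genes passed with TGF-β1 in NC cells, against 1906. The log2 fold change of Acvr1 in NC cells was 1.12 (SE 0.29, adjusted p = 0.0157, edgeR quasi-likelihood test). It was 0.66 without NC + TGF-β1 replicate 2, and the call was lost without NC replicate 1 or NC replicate 3. In siPdcd5 cells the value was 0.76 (SE 0.29, adjusted p = 0.0939), which did not pass. It passed in 5 of 19 alternative fits: with DESeq2, with no filter, with only the 6 libraries compared, without NC + TGF-β1 replicate 2 (0.76), and without siPdcd5 + TGF-β1 replicate 2 (1.00).

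Bmpr1a (chromosome 14, 34410734 to 34503341, minus strand), the type I BMP receptor also known as ALK3, passed in no comparison. It was at 105, 102 and 106 CPM in NC and at 99.0, 73.6 and 122 CPM in NC + TGF-β1. The siPdcd5 libraries had 68.1, 98.1 and 86.5 CPM and the siPdcd5 + TGF-β1 libraries 76.8, 86.0 and 82.3. The siPdcd5 libraries lay below the NC libraries, and the other comparisons overlapped. With TGF-β1 the log2 fold change was -0.09 in NC cells (95% interval -0.43 to 0.25) and -0.05 in siPdcd5 cells (-0.39 to 0.29). The knockdown difference without TGF-β1 was -0.31 (SE 0.16, adjusted p = 0.378, edgeR quasi-likelihood test).

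**Figure D2:**
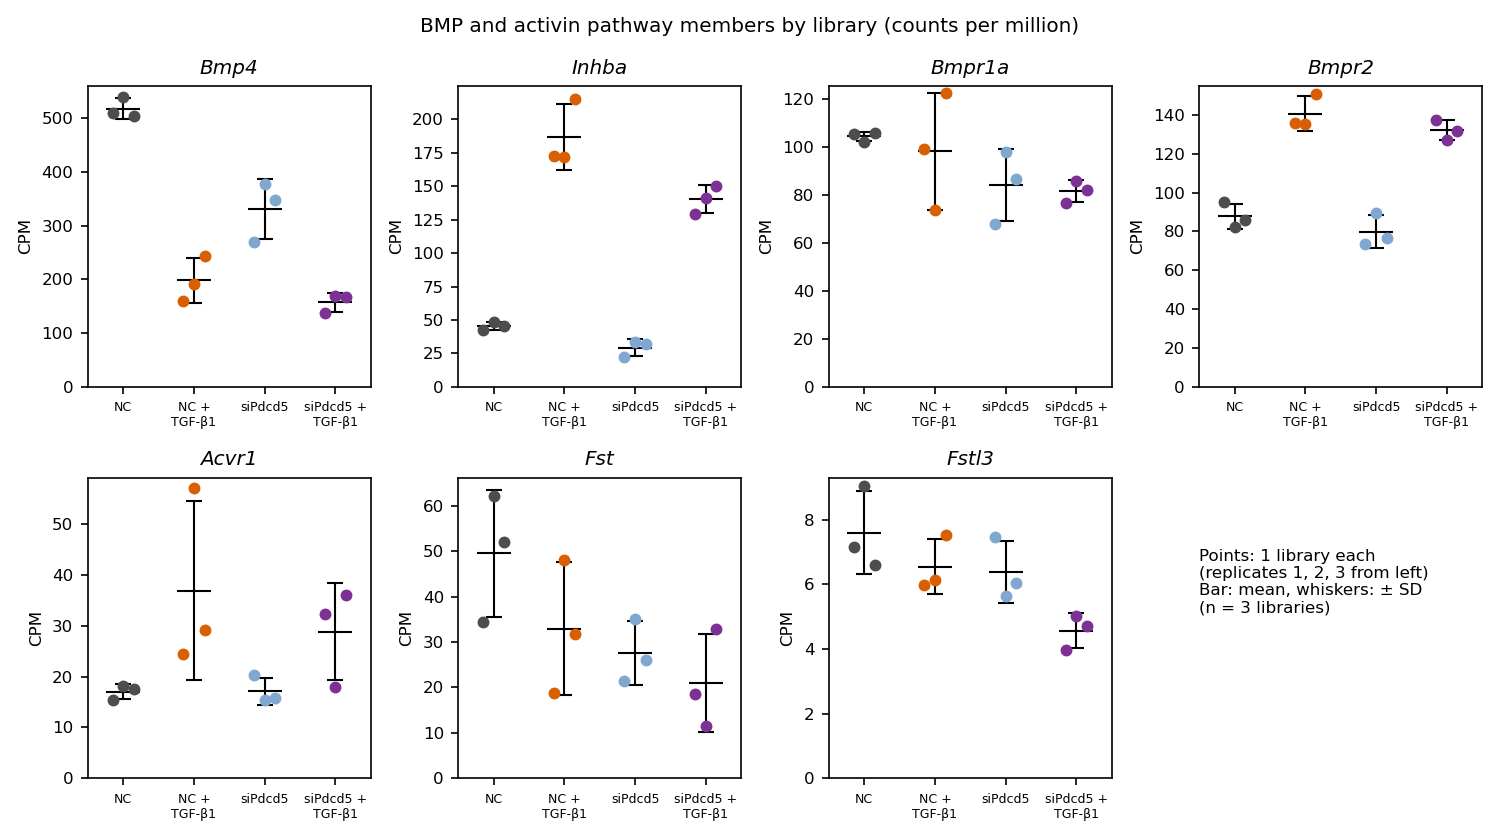
CPM (vertical axis, starting at 0) of the 7 testable members in the 4 groups, with a point for each library in the order of its replicate number, a bar for the mean and whiskers for 1 SD (n = 3 libraries). Bmp4 falls and Inhba and Bmpr2 rise in all TGF-β1 libraries, while Acvr1 and Fst spread widely within groups.

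The antagonists passed in no comparison. Fst (chromosome 13, 114452290 to 114458951, minus strand), which binds activins tightly and BMPs more weakly, was at 34.5, 62.2 and 52.1 CPM in NC and 18.9, 48.1 and 31.9 in NC + TGF-β1. It was at 21.5, 35.2 and 26.1 CPM in siPdcd5 and 18.5, 11.6 and 32.9 in siPdcd5 + TGF-β1. The groups overlapped in all 4 comparisons. The log2 fold change was -0.59 with TGF-β1 in NC cells (SE 0.35, adjusted p = 0.316) and -0.84 with the knockdown alone (SE 0.36, adjusted p = 0.261, edgeR quasi-likelihood test). Without NC + TGF-β1 replicate 2 the first of these was -0.96 and passed (adjusted p = 0.0490, edgeR), and with a fit to only the 6 libraries compared the second passed (adjusted p = 0.0460).

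Fstl3 (chromosome 10, 79777272 to 79782630, plus strand), a relative of follistatin, was low, at 59 to 122 counts a library. Its mean was 7.60 ± 1.28 CPM without and 6.54 ± 0.858 with TGF-β1 in NC cells, and 6.38 ± 0.958 and 4.56 ± 0.542 CPM in siPdcd5 cells. The libraries of siPdcd5 + TGF-β1, at 3.96, 5.01 and 4.71 CPM, were below those of siPdcd5, at 7.45, 5.62 and 6.05, and of NC + TGF-β1, at 5.97, 6.13 and 7.53. Neither difference passed (log2 fold changes -0.48 and -0.52, adjusted p = 0.111 and 0.226, edgeR quasi-likelihood test). Prss57 overlaps the 3′ end of Fstl3 on the other strand and had the same count in 9 of 12 libraries, 100% to 103% of the Fstl3 count. The counts did not separate the strands there, so the reads of the 2 genes cannot be told apart and the Fstl3 values are uncertain.

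The ratio of Inhba to Fst reads was higher in every library with TGF-β1 than in any without. For every 100 Fst reads there were 77.7 to 123 Inhba reads in NC and 95.6 to 122 in siPdcd5. With TGF-β1 there were 358 to 915 in NC and 457 to 1220 in siPdcd5. These ratios were formed after the values were seen and come from 3′ tags, not from protein.

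Across the 7 testable members, 4 passed with TGF-β1 in NC cells, Inhba, Bmpr2 and Acvr1 higher and Bmp4 lower, where 15.3% of all tested genes passed, 8.57% higher and 6.77% lower. In siPdcd5 cells 3 passed, the same members without Acvr1, against 16.1% of all genes, 8.5% higher and 7.61% lower. With the knockdown alone 2 passed, both lower, against 3.44% of all genes, 0.901% higher and 2.54% lower. With the knockdown under TGF-β1 none of the 7 passed in edgeR, nor under DESeq2 or limma, though Bmp4, Inhba and Fstl3 had an unadjusted p under 0.05 in edgeR. Of all genes 1.55% passed there, 0.33% higher and 1.22% lower. The median log2 fold change of the members was -0.09, -0.05, -0.31 and -0.35 in these 4 comparisons, beside 0.00, -0.03, 0.02 and -0.02 over all genes. Groups did not overlap for 4, 4, 3 and 2 of the 7 members, against 29.6%, 36.1%, 23.1% and 18.9% of all genes. The comparisons share libraries, so these counts are not independent of each other.

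**Figure D3:**
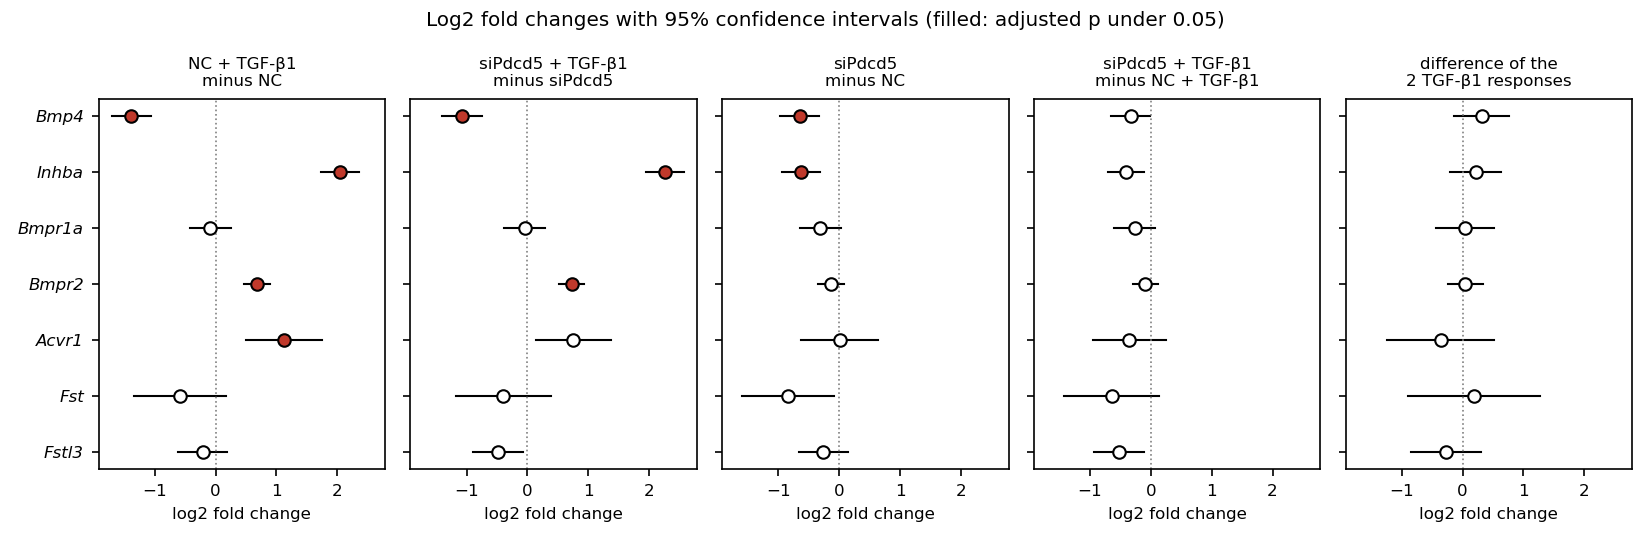
Log2 fold changes (horizontal axis) of the 7 testable members with 95% confidence intervals in the 4 comparisons and in the difference of the TGF-β1 responses, siPdcd5 minus NC. Filled points passed an adjusted p of 0.05: 4, 3, 2, 0 and 0 of 7, from left to right.

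Whether the knockdown altered the TGF-β1 response was tested as the difference of the 2 responses. No member passed, and nor did any of the 12425 genes in edgeR's quasi-likelihood test, of which 638 had an unadjusted p under 0.05. DESeq2 called 15 genes, 1 of them from the lists of other pathway genes below. The edgeR fit without NC + TGF-β1 replicate 2 called 2 genes, 1 of them from those lists. The response of Bmp4 differed by 0.31 on the log2 scale (95% interval -0.14 to 0.77), the fall being smaller in siPdcd5 cells. That of Inhba differed by 0.22 (-0.21 to 0.64) and that of Bmpr2 by 0.05 (-0.25 to 0.34). For Acvr1 the interval was -1.24 to 0.51 and for Fst -0.89 to 1.28, so a difference of more than 2-fold is within the interval for both.

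The genes with the most similar profiles over the 12 libraries were listed for the 4 members that passed a comparison, by Pearson's r of log2 CPM over 9127 genes. The points fall in groups set by the treatment, so r is a description. Bmp4 was nearest to Gpc6 (r = 0.992), Sema3e (0.982) and Pcdh9 (0.977), a glypican, a semaphorin and a protocadherin. Inhba was nearest to Fstl1 (0.995), a follistatin-like secreted protein, Krt14 (0.993), a basal cell keratin, and Lox (0.992), the collagen cross-linking enzyme. Bmpr2 was nearest to the transcription factors Jun (0.989) and Runx1 (0.986). Acvr1 was nearest to Emp1 (0.962), Epb4.1l2 (0.953) and Klf10 (0.945), a TGF-β-inducible factor. Among the members, Inhba and Bmpr2 had an r of 0.97 and Bmp4 and Inhba an r of -0.73.

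The rest of the pathway was taken from 6 lists of 94 genes, of which 40 passed the filter. With TGF-β1, 11 of the 40 were higher and 7 lower in NC cells, and 9 were higher and 8 lower in siPdcd5 cells. Over all genes tested 8.57% were higher and 6.77% lower in NC cells, and 8.5% and 7.61% in siPdcd5 cells. The BMP-SMAD target genes had the largest changes: 4 of 6 tested passed as lower in each background, and none passed as higher. The other 2, Dlx2 and Gata3, did not pass, and only these 6 of the 14 listed could be tested. Id2, an inhibitor of basic helix-loop-helix factors, was at 124 to 137 CPM in NC and 6.07 to 9.19 in NC + TGF-β1 (log2 fold change -4.18, SE 0.17, adjusted p = 1.9e-09, edgeR quasi-likelihood test). It was at 68.0 to 82.2 CPM in siPdcd5 and 7.13 to 10.6 in siPdcd5 + TGF-β1 (-3.03, SE 0.17, adjusted p = 2.4e-08). Its relatives Id1 and Id3 changed by -2.16 and -2.99 in NC cells and by -1.75 and -2.77 in siPdcd5 cells. Atoh8, a basic helix-loop-helix factor induced by BMP signalling, changed by -2.95 and -2.49. In all 4 genes every treated library was below every untreated one.

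Of the 10 SMADs and SMAD ubiquitin ligases, all tested, the inhibitory SMADs went opposite ways. Smad6, which blocks mainly BMP receptors, fell from 16.8 ± 1.41 to 6.88 ± 0.457 CPM in NC cells (log2 fold change -1.28) and from 10.5 ± 0.748 to 7.14 ± 0.636 in siPdcd5 cells (-0.56). Smad7, which blocks TGF-β, activin and BMP receptors, rose from 14.6 ± 1.13 to 22.8 ± 1.78 CPM in NC cells (0.64) and from 10.7 ± 0.481 to 25.6 ± 1.59 in siPdcd5 cells (1.26). Smurf1, the ubiquitin ligase for BMP SMADs, rose by 0.71 in both, and the BMP SMAD Smad9, at most 2.06 CPM in any library, changed by -2.04 and -1.54. In siPdcd5 cells the Smad6 call was lost without siPdcd5 + TGF-β1 replicate 2 and the Smad9 call without replicate 3 of either siPdcd5 group. Smad5 passed in NC cells (0.27, adjusted p = 0.0382, edgeR quasi-likelihood test), a call kept in 5 of 19 alternative fits, and not in siPdcd5 cells (0.08).

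Among the other antagonists and modulators, 4 of 11 tested rose and 1 fell in NC cells, and 3 rose and 1 fell in siPdcd5 cells. Fstl1 rose from 460 ± 10.98 to 1762 ± 179 CPM in NC cells (1.94) and from 335 ± 37.3 to 1463 ± 9.22 in siPdcd5 cells (2.13). Tsku, which encodes the BMP-binding proteoglycan tsukushi, changed by 1.60 and 1.19, and Htra1, a secreted protease that binds TGF-β family ligands, by 0.89 and 0.67. Crim1, a membrane protein that holds back BMPs, fell by 0.67 and 0.46 on the log2 scale. Bmper, an extracellular BMP regulator, passed in NC cells (0.62, adjusted p = 0.0460, edgeR quasi-likelihood test), a call kept in 7 of 19 alternative fits, and not in siPdcd5 cells (0.32). For neither gene did the difference of the responses pass. Both tested processing proteases rose: Bmp1, which cleaves chordin, by 0.60 and 0.46, and Furin, which cuts the ligand precursors, by 0.83 and 0.72. The Furin call was lost in NC cells without NC replicate 2 or NC + TGF-β1 replicate 3 and in siPdcd5 cells without siPdcd5 replicate 1 or any single siPdcd5 + TGF-β1 replicate.

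Only 4 of the 25 other ligands were expressed above the filter. Gdf15, a stress-induced member of the superfamily, rose from 2.25 ± 0.711 to 8.97 ± 3.59 CPM in NC cells (1.99) and from 4.59 ± 1.83 to 15.03 ± 0.386 in siPdcd5 cells (1.69). Bmp8a changed by 1.34 and 1.16, at 1.25 to 7.09 CPM, and its call in siPdcd5 cells was lost without replicate 1 or 2 of either siPdcd5 group. Bmp7 had 5 counts in all and Inhbb, the other common activin subunit, 32. None of the 7 tested receptors and co-receptors passed in NC cells, and in siPdcd5 cells Neo1, a co-receptor, fell by 0.43 on the log2 scale. The type II activin receptors Acvr2a and Acvr2b were at 12.3 to 20.5 and 3.59 to 8.93 CPM and did not pass. The type I activin receptor Acvr1b had 38 counts in all, at most 12 in a library, and the BMP receptor Bmpr1b 3.

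**Figure D4:**
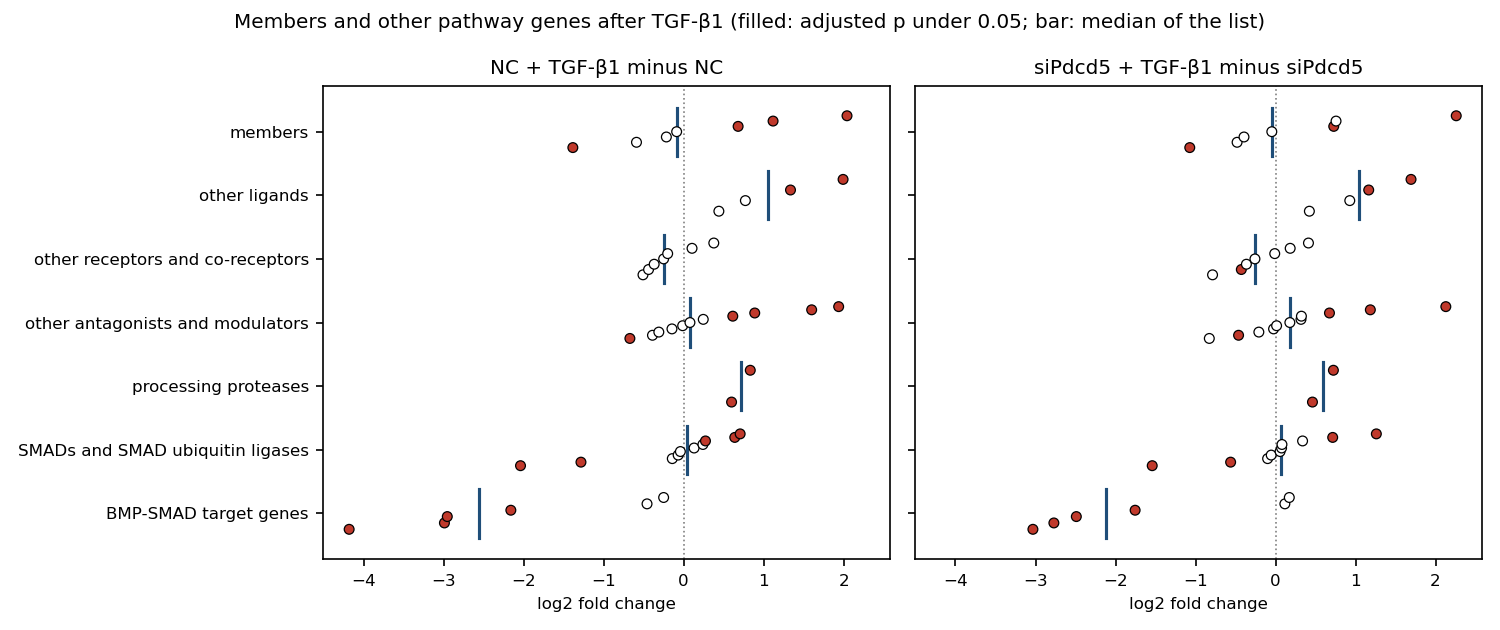
Log2 fold change with TGF-β1 (horizontal axis, 1 scale for both panels) in NC cells (left) and siPdcd5 cells (right) for each tested gene of the 7 members and the 6 lists. Filled points passed an adjusted p of 0.05 and the bar is the median of the list, which was -2.56 and -2.12 for the BMP-SMAD target genes.

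With the knockdown alone, 6 of the 40 other genes passed and all were lower, beside 2.54% of all genes lower. They were Id2 (-0.78), Smad6 (-0.67), Crim1 (-0.59), Id1 (-0.49), Fstl1 (-0.46) and Smad7 (-0.45), with adjusted p from 0.0030 to 0.0492 in edgeR's quasi-likelihood test. Id2 and Crim1 kept the call in all 19 alternative fits and Smad7 in 5. The count was 2 without NC replicate 2 and 3 without NC replicate 1, NC replicate 3 or siPdcd5 replicate 3. With TGF-β1 present, 1 of the 40 passed, close to the 1.55% of all genes that did. It was Htra1, at 650 to 738 CPM in NC + TGF-β1 and 477 to 518 in siPdcd5 + TGF-β1 (-0.46, adjusted p = 0.0087, edgeR quasi-likelihood test), a call lost without siPdcd5 + TGF-β1 replicate 1 or 3.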

How the data were processed

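The deposited files held raw counts per gene, 1 file for each of 12 libraries. Per the labels and the study's methods, the authors made QuantSeq 3′ libraries from total RNA, aligned the reads with Bowtie2 to mm10 and counted unique and multiple alignments with Bedtools. The annotation and the use of strand are not given in the sources used here, and a 3′ tag count measures the end of a transcript. Counts were tested with edgeR 4.0.16 (R 4.3.3): the default expression filter over the 12 libraries kept 12425 of 23282 gene rows, TMM factors were used, and 1 quasi-likelihood model with a mean for each group gave the contrasts, with Benjamini-Hochberg adjustment over all genes tested and a threshold of 0.05. This scaling differs from the quantile normalization named in the study's methods, which was run as an alternative with limma 3.58.1. CPM used TMM-scaled totals, and log2 CPM for profiles used a prior count of 2 and genes with a mean of at least 3. The other alternatives were upper-quartile factors, DESeq2 1.42.0, no filter, a minimum of 10 counts in each library, a fit to just the 6 libraries of a comparison, the replicate number as a block, and leaving out each library. The code was tested on simulated data. Totals of 12809857 to 17714828 counts set the limit for a count of 0: 3 counts equal 0.165 to 0.239 CPM (counting error only).

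The members and the pathway and marker lists were chosen with earlier results of these data known. Named were all members, Pdcd5, each list gene past the threshold in at least 1 of the 4 pairwise comparisons (at most 8 a list), and for each member that passed the 3 genes with the highest correlation, 1 of which is not reported here. Gene positions are from GENCODE M21 and promoter windows from RefSeq, both GRCm38; windows for 8 of 10 members were matched, without Bmp2 and Fst. Protein sequences were not used here.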

Additional observations from a re-analysis of the deposited data

How the results depend on the processing

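The calls of Bmp4, Inhba and Bmpr2 with TGF-β1, in NC and in siPdcd5 cells, held in all 19 alternatives. The Bmp4 log2 fold change ranged from -1.55 to -1.25 and from -1.19 to -0.97, that of Inhba from 1.94 to 2.10 and from 2.11 to 2.37. Acvr1 held in 17 of 19 in NC cells (0.66 to 1.34) and passed in 5 of 19 in siPdcd5 cells (0.56 to 1.00). Bmp4 and Inhba with the knockdown alone held in 14 of 19, and the number of members called there was 0 to 2 when 1 library was left out. Values near 0 changed sign: Acvr1 with the knockdown alone, 0.01, was -0.036 with quantile normalization, -0.00072 with DESeq2 and -0.0057 without a filter. Leaving out 1 library gave, with a change of sign, -0.13 to 0.079 for Acvr1 with the knockdown alone and -0.58 to 0.10 under TGF-β1, and for Bmpr1a with TGF-β1 -0.27 to 0.085 in NC and -0.17 to 0.078 in siPdcd5 cells. For the difference of the responses it gave -0.13 to 0.22 for Bmpr1a, -0.016 to 0.14 for Bmpr2, -0.58 to 0.10 for Acvr1 and -0.29 to 0.57 for Fst. The cause was not tested.

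Over all genes, 427 passed with the knockdown alone, 714 with DESeq2 and 175 to 673 with 1 library left out. Under TGF-β1 192 passed, against 459 with DESeq2, 43 with only the 6 libraries compared, 107 with the replicate block and 74 to 326 with 1 library left out. The difference of the responses gave 0, 15 with DESeq2 and 2 without NC + TGF-β1 replicate 2. With DESeq2, and again without that replicate, 1 of the 40 other pathway genes was called. Of the 40 other pathway genes, the 6 lower with the knockdown alone became 2 without NC replicate 2 and 3 without NC replicate 1, NC replicate 3 or siPdcd5 replicate 3, and the 1 under TGF-β1 became 0 with only the 6 libraries compared or without siPdcd5 + TGF-β1 replicate 1 or 3, and 2 with DESeq2. Upper-quartile factors gave 945 higher and 996 lower genes with TGF-β1 in NC cells, against 1065 and 841. Whether the replicate numbers pair the libraries was not settled. Same-numbered libraries deviated together with r from -0.32 to 0.17, and differently numbered ones with r from -0.22 to 0.25. For TGF-β1 in NC cells these ranges were 0.0074 to 0.17 and -0.17 to 0.058. With the replicate block 4, 3, 2 and 0 members passed in the 4 comparisons, as without it, and 1687, 1731, 301 and 107 genes. Depth limits Bmp2, Bmp6 and Grem1, which had at most 3 counts in a library.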
